A study of Homo sapiens with 3 samples.

Results

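Mitochondrial ribosomal protein genes encode the proteins of the ribosome inside mitochondria, whose symbols start with MRPL for the large subunit and MRPS for the small subunit. They were taken from a table of read counts per gene by symbol, that is MRPL or MRPS followed by a number and at most 1 letter, with pseudogene names left out. A sum of at least 60 reads over 3 libraries was required. Of 76 symbols that match the name rule, 73 met this minimum, 45 of the large and 28 of the small subunit. They are 73 of 48162 entries in the table and of 12624 entries with at least 60 reads. MRPS24, MRPL30 and MRPL53 were left out with 3, 1 and 34 reads in all, and the member nearest to the threshold was MRPL38 with 68 reads.

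All RNA came from HCT116, a human cell line derived from a colon cancer, with 1 library per group. The first group is untreated HCT116 cells. The second is HCT116 cells 24 hours after transfection with an siRNA (a small RNA that lowers its target mRNA) against CDK4, and the third is HCT116 cells kept for 24 hours in 1 µM palbociclib, an inhibitor of the kinases CDK4 and CDK6. Both treatments share the untreated library as control, and cells with a non-targeting siRNA or with solvent were not analysed here. The libraries held 20313597, 18349355 and 18020870 reads. CDK4, the siRNA target, had 2689 reads untreated, 1059 with siRNA and 1426 with palbociclib, and thus stood at 0.42 of the untreated level with siRNA (95% counting interval 0.391 to 0.451). The epithelial markers EPCAM, KRT8, KRT18 and CDH1 were abundant in each library, from 37.9 to 3258 CPM (counts scaled to a common library total), while VIL1, listed with them, had 0, 0 and 5 reads. The 7 epithelial markers summed to 3906 CPM untreated, 3696 with siRNA and 2439 with palbociclib. Most of that difference was KRT8, at 3258 CPM untreated and 1810 with palbociclib, while EPCAM, at 263 and 332 CPM, and CDX2, at 31.9 and 42.7, were higher with palbociclib. KRT20 was low throughout, with 22, 16 and 5 reads. The 4 leukocyte markers summed to 0.0476, 0.203 and 3.2 CPM, with PTPRC and CD3E at 0 and CD14 at 0, 3 and 52 reads. The 3 fibroblast markers summed to 15.0, 22.3 and 8.81 CPM, nearly all from COL1A1, and the 2 endothelial markers to 0.333, 0.508 and 0.493 CPM, with CDH5 at 0. Their part in the results was not tested.

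The mitochondrial ribosome translates the few mRNAs that are transcribed from mitochondrial DNA, all of which encode subunits of the respiratory chain and ATP synthase. Its RNA comes from the mitochondrial genome, but all of its proteins are encoded in the nucleus, made in the cytosol and imported. Many of them descend from proteins of bacterial ribosomes, and others are particular to mitochondria. Their genes are known as housekeeping genes, and factors such as NRF1, the ETS-family factor GABPA and YY1 are known regulators of nuclear genes for mitochondrial proteins.

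Promoter sequences of the members were searched for short motifs. RefSeq promoters of build GRCh38.p14, each from 250 bases before to 50 after the annotated start, were matched by symbol for 64 of 73 members. Only 1 start per symbol was used, although 11 members have more than 1. Each of the following motifs was searched on both strands as exact letters. The ETS motif CCGGAAG was present in 26 of 64 member promoters, or 40.6%, against 19.7% of 8957 promoters of genes with at least 60 reads and 10.7% of all 27305 promoters. The YY1 motif AAGATGG, which can share up to 3 letters with a preceding ETS motif, was present in 22 of 64, or 34.4%, against 7.88% and 6.06%. The NRF1 motif GCGCATG was present in 7 of 64, or 10.9%, against 7.84% and 4.67%. The other motifs were not more frequent than among genes with reads: the GC box GGGCGG was in 60.9% against 72.3%, the CCAAT box CCAAT in 31.2% against 36.5%, the E-box CACGTG in 9.38% against 10.3% and the TATA box TATAAA in 3.12% against 4.87%. These shares describe letters and not binding.

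**Figure D1:**
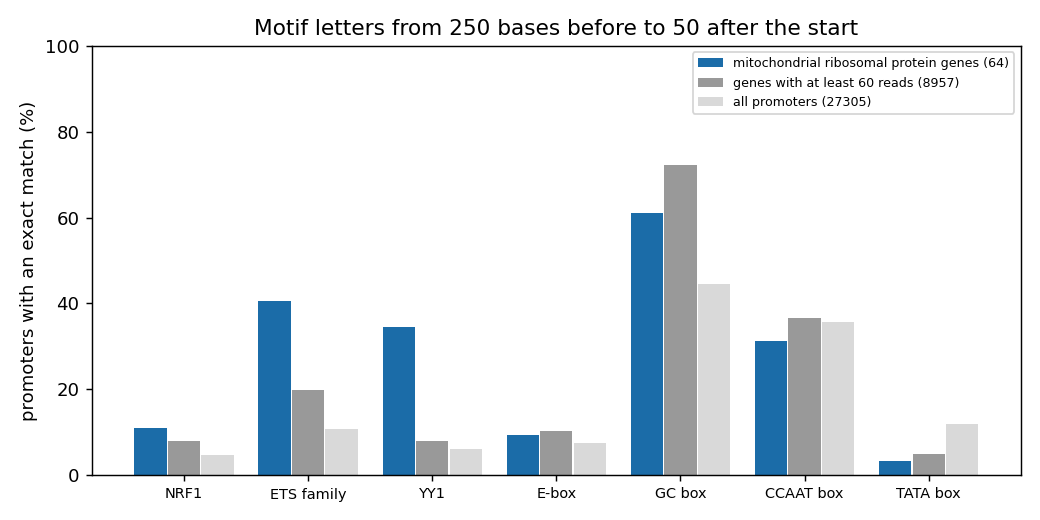
Share of promoters (y axis, percent, from 0) that hold each motif (x axis) as exact letters on either strand, for 64 members, 8957 genes with at least 60 reads and all 27305 promoters. The ETS and YY1 bars of the members stand at 40.6% and 34.4%, against 19.7% and 7.88% for genes with reads.

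Promoters are shown for members toward both ends of the range of palbociclib ratios described later. They were taken from the 2 lowest and the 2 highest members with at least 300 reads over the 3 libraries, of which MRPL10 is named only. MRPL38, with 68 reads, lay above MRPS2 in the ratio, and its promoter holds ETS, YY1 and GC box letters. They hold the 250 bases before the start, 5′ to 3′ on the gene's strand, with matches to the ETS, YY1, NRF1, E-box, CCAAT and GC box letters in capitals. MRPL40 lies on the plus strand at chr22:19432295-19432544, MRPL24 on the minus strand at chr1:156741089-156741338 and MRPS2 on the plus strand at chr9:135500432-135500681.
MRPL40: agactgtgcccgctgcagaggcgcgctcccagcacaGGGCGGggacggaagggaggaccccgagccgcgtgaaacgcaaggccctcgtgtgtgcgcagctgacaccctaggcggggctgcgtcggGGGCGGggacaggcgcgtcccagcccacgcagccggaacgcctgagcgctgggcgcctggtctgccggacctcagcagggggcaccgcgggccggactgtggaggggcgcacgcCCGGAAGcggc
MRPL24: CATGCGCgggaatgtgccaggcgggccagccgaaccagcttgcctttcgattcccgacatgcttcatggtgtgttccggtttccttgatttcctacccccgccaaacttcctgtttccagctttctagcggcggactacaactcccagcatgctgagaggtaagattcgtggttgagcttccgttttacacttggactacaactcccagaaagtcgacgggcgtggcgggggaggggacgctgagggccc
MRPS2: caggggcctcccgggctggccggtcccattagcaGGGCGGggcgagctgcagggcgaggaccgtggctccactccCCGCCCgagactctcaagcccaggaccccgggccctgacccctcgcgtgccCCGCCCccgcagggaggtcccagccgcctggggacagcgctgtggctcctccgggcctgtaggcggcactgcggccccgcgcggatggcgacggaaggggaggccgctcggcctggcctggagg
MRPL40 has the ETS letters 11 bases before the start. MRPL24 has the NRF1 letters on the opposite strand at the outer end of the window, and MRPS2 has GC box letters, as MRPL40 has too.

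The YY1 letters of the members lay close to the start, as did those of genes with reads. Of 23 matches 15 lay after the start and 19 read along the gene's strand, and the median position was 9 bases after the start. Among genes with reads 395 of 750 matches lay after the start and 521 read along the gene's strand, and the median position was 6 bases after the start. Of the 12 members that passed the 2-fold rule as lower with palbociclib, given later, 6 have YY1, 5 ETS and 3 NRF1 letters. Among all 64 member promoters 22 have YY1, 26 ETS and 7 NRF1 letters. One 30-base window is shown for each of the 6 with YY1 letters, to let the surrounding letters be compared. The YY1 letters or their reverse complement are in capitals. In build GRCh38.p14 the windows are chr5:1799853-1799882 (minus strand, MRPL36), chr14:22829778-22829807 (plus, MRPL52), chr17:75261887-75261916 (plus, MRPS7), chr11:66438806-66438835 (minus, MRPL11), chr1:1407260-1407289 (minus, MRPL20) and chr12:6493223-6493252 (minus, MRPL51).
MRPL36: cccccccgccgCCATCTTccttcctggcag
MRPL52: tacgatgacccAAGATGGcggagccgtgat
MRPS7: cgtggccagccAAGATGGctgcccccgcag
MRPL11: acctctggcccAAGATGGtggcgcccagag
MRPL20: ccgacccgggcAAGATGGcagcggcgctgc
MRPL51: gggtaaggcccAAGATGGctgtcttcgcct
MRPS7, MRPL11, MRPL20 and MRPL51 have these letters between 16 and 25 bases after the start, and MRPL36 and MRPL52 have them before it. The positions after the start given for these windows count the start base itself, and the median positions above do not.

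The levels of the members were compared per length with the deposited FPKM values (counts adjusted for gene length and library total). The median member stood at 37.6 FPKM untreated, 33.3 with siRNA and 20.7 with palbociclib. On this scale the median log2 ratio of palbociclib to untreated was −0.26 over all entries with at least 60 reads. Over the members it was −0.75. In the untreated library the median was 43.6 FPKM over the large subunit, with an interquartile range of 26.2 to 61.0, and 31.8 over the small subunit, with a range of 17.7 to 44.8. These ranges overlap. With palbociclib the medians were 21.6 and 19.7 FPKM.

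The 4 highest members by mean FPKM were MRPS34, MRPS23, MRPL18 and MRPL3. MRPS34, a small subunit protein particular to mitochondria, had 185 FPKM untreated, 175 with siRNA and 107 with palbociclib. MRPL3, a large subunit protein with a bacterial homologue and a gene of inherited cardiomyopathy, had 138, 116 and 86.9 FPKM. MRPL18 had 145, 126 and 78.4 FPKM and MRPS23 had 141, 140 and 96.2. All 4 were lowest in the palbociclib library.

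The 4 lowest members were MRPL46, MRPL38, MRPS17 and MRPS6. MRPL46 and MRPL38, which lie in the central protuberance of the large subunit, had 0.407, 0.412 and 0.379 FPKM and 0.521, 0.779 and 0.617 FPKM. MRPS17 had 2.62, 3.61 and 2.14 FPKM, and MRPS6 had 4.38, 3.75 and 3.05. In GENCODE release 29 on GRCh38, which is not the build of these counts, exons of some of these genes overlap another gene. Among members the shared part on the same strand was largest for MRPL12, at 68.2% of exon bases, MRPL38 at 37.5%, MRPS28 at 35.8%, MRPS17 at 27.0%, MRPL33 at 21.1%, MRPL46 at 11.3% and MRPL20 at 10.5%, and it was 9.61% for MRPS6. For the genes left out for few reads it was 45.2% for MRPL53, 23.2% for MRPS24 and 19.5% for MRPL30. Exons shared with a gene on the opposite strand made up 40.2% for MRPS18C, 36.9% for MRPL43, 33.2% for MRPL9, 31.3% for MRPL51, 22.2% for MRPS25 and 21.4% for MRPL4, and a larger share for MRPS18A. Among further members named here the opposite-strand part was 16.3% for MRPS12, 14.4% for MRPS2, 14.1% for MRPS16, 12.9% for MRPL44 and 10.8% for MRPS7. The handling of such reads by the counting is not given in the sources used here, so the levels of these genes are uncertain and the part of the overlap in them was not tested.

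**Figure D2:**
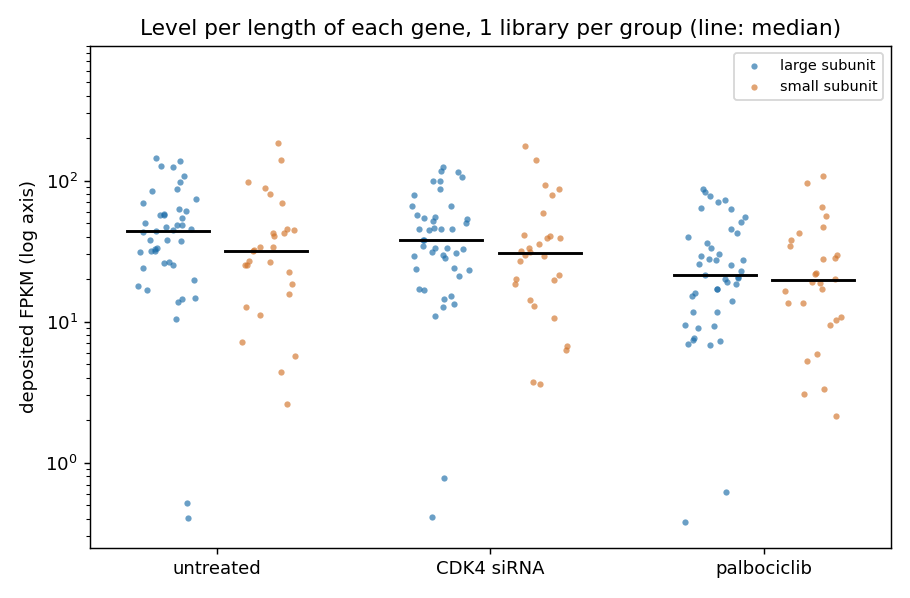
Deposited FPKM (y axis, log scale) of each of 73 members in the 3 libraries (x axis), with 1 point per gene, colours for the subunits and a black line at the median. The medians of the large subunit are 43.6 FPKM untreated and 21.6 FPKM with palbociclib, and those of the small subunit 31.8 and 19.7 FPKM.

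Palbociclib against untreated. Most mitochondrial ribosomal protein genes stood lower in the palbociclib library, and more so in the large subunit. Together the members held 0.542% of the reads in the untreated library (0.539 to 0.545), 0.502% with siRNA (0.499 to 0.505) and 0.341% with palbociclib (0.339 to 0.344). The median log2 ratio of palbociclib to untreated was −0.55 over the 73 members, against −0.076 over all 12624 entries compared. It ranged from −1.48 for MRPL40 to 0.49 for MRPL10, and 61 of 73 members lay below the median of all entries. With 1 library per group there is no replicate and no test. In bulk RNA, fewer cells that express a gene and less of its RNA per cell cannot be told apart. Intervals in brackets cover counting error only, and every ratio is one between libraries.

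The size of the differences was moderate. A gene was counted as past the 2-fold rule when its log2 ratio, taken with a prior count of 2, was at least 1 in either direction and its counting interval excluded 1. By this rule 12 of 73 members were lower, or 16.4%, near the 13.6% of all entries that were lower, while no member was higher against 9.75% of all entries. A 1.5-fold rule with the same condition counted 33 members as lower, or 45.2%, against 25.5% of all entries, and none as higher against 20.1%. The interval lay below 1 for 59 members, or 80.8%, against 42.1% of all entries, and above 1 for 4, or 5.48%, against 35.8%. Members had more reads than the average entry, with a median of 3311 against 1540 over the 3 libraries, so their intervals are narrower. The share past the 2-fold rule was thus near that of all entries, while most intervals lay on the lower side.

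The large subunit stood lower than the small subunit in the palbociclib library. The median log2 ratio was −0.69 over 45 large subunit genes, with an interquartile range of −0.99 to −0.28, and −0.37 over 28 small subunit genes, with a range of −0.61 to −0.19. Of the 12 members past the 2-fold rule 11 encode large subunit proteins, which is 24.4% of that subunit against 3.57% of the other. The share of all entries was 13.6%. By the 1.5-fold rule 25 of 45 large, or 55.6%, and 8 of 28 small subunit genes, or 28.6%, were lower, against 25.5% of all entries. The small subunit share was thus near that of all entries. The summed reads of the large subunit stood at 0.695 of the untreated level (0.687 to 0.704) and those of the small subunit at 0.771 (0.758 to 0.783). Ranges of single genes overlap widely, from −1.48 to 0.49 and from −1.14 to 0.22, and members are not replicates, so the difference was not tested. MRPS18A and MRPS30 lie in the large subunit of the solved structure and MRPS36 is known as a part of a metabolic enzyme complex. With the subunits assigned in that way the medians were −0.64 and −0.37.

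**Figure D3:**
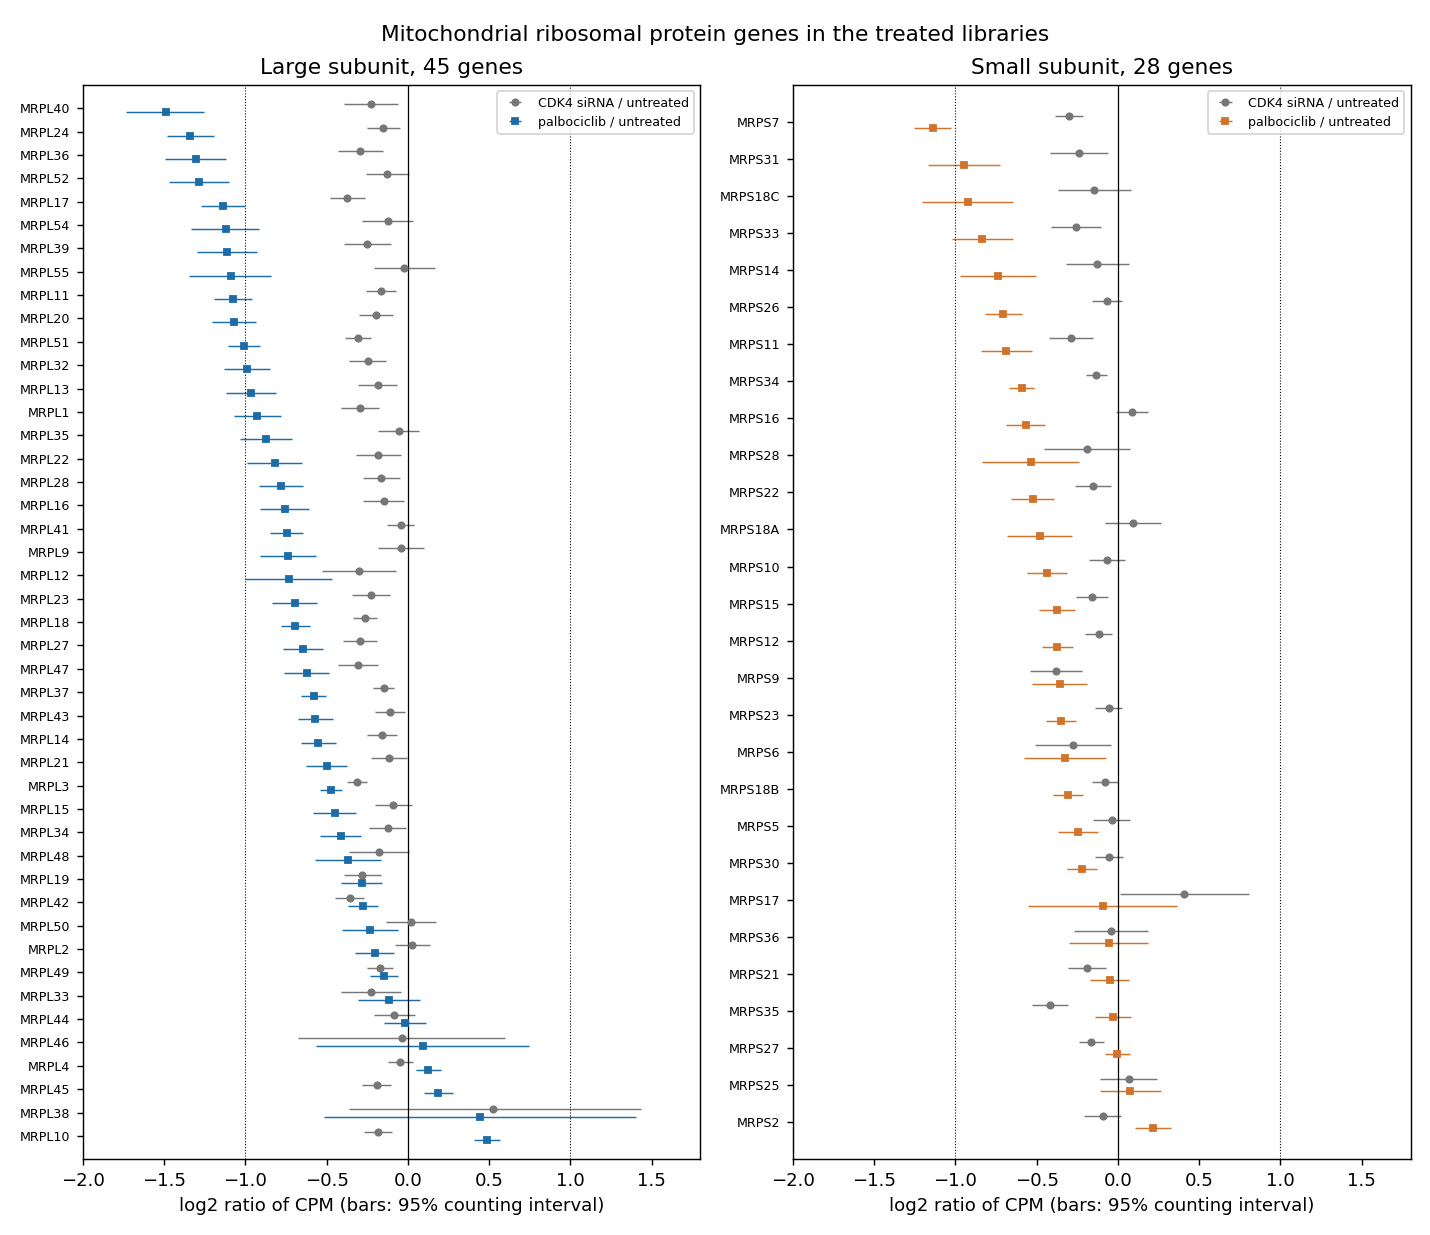
Log2 ratio of CPM to the untreated library (x axis) for the 45 large (left) and 28 small subunit genes (right), sorted by the palbociclib ratio, with grey points for CDK4 siRNA, coloured squares for palbociclib and bars for the 95% counting interval. Dotted lines mark a ratio of 2-fold in either direction. Most squares lie left of 0 and left of the grey points, with MRPL40 lowest and MRPL10 highest.

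The lowest members with palbociclib were of the large subunit. MRPL40, a protein of the central protuberance whose gene lies in the chromosome region deleted in DiGeorge syndrome, had 672 reads untreated, 538 with siRNA and 185 with palbociclib. This gave 32.0 CPM (29.6 to 34.5), 27.3 (25.1 to 29.7) and 11.4 (9.81 to 13.2). The siRNA library was thus slightly and the palbociclib library far lower, at 0.356 of untreated (0.301 to 0.42). MRPL24, a protein near the exit of the peptide tunnel, had 80.9, 72.9 and 32.0 CPM and stood at 0.396 (0.358 to 0.437). MRPL36, a small protein with a bacterial homologue, had 46.8, 38.2 and 19.0 CPM and stood at 0.405 (0.355 to 0.461). MRPL52, a protein particular to mitochondria, had 48.9, 44.8 and 20.1 CPM and stood at 0.411 (0.361 to 0.466). In each of these 4 genes the palbociclib library was the lowest, and its interval did not overlap that of either other library.

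MRPS7, a small subunit protein with a bacterial homologue that contacts the ribosomal RNA, was the only member of its subunit past the 2-fold rule. It had 2436, 1856 and 854 reads, or 116, 94.2 and 52.6 CPM, and stood at 0.454 of untreated with palbociclib (0.419 to 0.49). The other 7 members past the rule stood between 0.454 and 0.498 of the untreated level. They are MRPL17 and MRPL20, with bacterial homologues, MRPL11 and MRPL54 of the stalk, a flexible part that recruits translation factors, and MRPL39, MRPL51 and MRPL55, which are particular to mitochondria. MRPL51 was the nearest to the threshold, at 0.498 (0.464 to 0.533), and the first member outside it was MRPL32 at 0.503 (0.456 to 0.555).

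Not every member was lower. MRPL10, which forms the base of the stalk, had 2370 reads untreated, 1960 with siRNA and 2570 with palbociclib, or 113, 99.5 and 158 CPM. It stood at 1.4 times the untreated level with palbociclib (1.33 to 1.48), the highest of all members. MRPS2, a small subunit protein with a bacterial homologue, stood at 1.16 (1.08 to 1.26), MRPL45, a protein at the tunnel exit, at 1.14 (1.07 to 1.21) and MRPL4 at 1.09 (1.03 to 1.15). With total-count scaling, which moved the median of all entries from −0.076 to −0.27, MRPL45 and MRPL4 stood below the untreated level, at log2 ratios of −0.011 and −0.072. Intervals of 10 members included 1, among them MRPL44 at 0.989 (0.904 to 1.08), MRPS27 at 0.997 (0.944 to 1.05), MRPS35 at 0.981 (0.908 to 1.06) and MRPS36 at 0.961 (0.812 to 1.14).

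Structural neighbours did not share 1 ratio. Of the 4 measured stalk genes MRPL54 stood at 0.46, MRPL11 at 0.474, MRPL12 at 0.602 and MRPL10 at 1.4 of the untreated level with palbociclib. MRPL12, the homologue of the bacterial stalk protein that binds translation factors, had 374, 285 and 174 reads. The 7 tunnel exit genes had log2 ratios from −1.33 for MRPL24 to 0.19 for MRPL45, with a median of −0.70. The 6 measured genes of the central protuberance ranged from −1.48 for MRPL40 to 0.40 for MRPL38, which had 20, 27 and 21 reads, and had a median of −0.50. The 3 S18 paralogues descend from 1 bacterial protein. MRPS18C stood at 0.527 (0.433 to 0.64), MRPS18A at 0.716 (0.622 to 0.823) and MRPS18B at 0.808 (0.759 to 0.86), and the intervals of MRPS18B and MRPS18C do not overlap. Members were also split by symbol number alone. Those taken as bacterial homologues had a median of −0.59 over 44, and those taken as particular to mitochondria −0.52 over 29. MRPS36 was counted among the latter.

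Of the other members fixed for naming, all stood below the untreated level with palbociclib. MRPL28, a large subunit protein, stood at 0.582 (0.529 to 0.639) and MRPL41, a large subunit protein particular to mitochondria, at 0.597 (0.557 to 0.64). MRPS16 and MRPS22, small subunit proteins altered in inherited mitochondrial disease, stood at 0.674 (0.621 to 0.732) and 0.695 (0.635 to 0.76). MRPS34 stood at 0.664 (0.628 to 0.7), MRPL3 at 0.721 (0.687 to 0.756), MRPS12, a protein of the decoding centre, at 0.773 (0.723 to 0.825), and MRPS30 at 0.857 (0.803 to 0.913).

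Ratios of members with and without motif letters overlapped. The median log2 ratio with palbociclib was −0.61 for the 26 members with the ETS letters and −0.39 for those without, and −0.46 for the 22 with the YY1 letters and −0.58 for those without. For the 7 members with the NRF1 letters it was −0.99, with a range of −1.33 to −0.31, against −0.52 for the others. The mRNAs of the factors themselves were at 1.26 of untreated for YY1 (1.21 to 1.31), 0.825 for GABPA (0.736 to 0.924) and 0.82 for NRF1 (0.725 to 0.926).

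CDK4 siRNA against untreated. The members stood slightly lower in the siRNA library. Their median log2 ratio was −0.16, against −0.020 over all entries, and 66 of 73 members lay below the median of all entries. Their summed reads stood at 0.892 of the untreated level (0.884 to 0.9). None passed the 2-fold rule, against 1.07% of all entries that were higher and 0.111% that were lower, and none passed the 1.5-fold rule, against 3.75% and 0.903%. The interval lay below 1 for 44 members, or 60.3%, against 23.8% of all entries, and above 1 for 1, or 1.37%, against 17.7%. Over all entries GC content and the log2 ratio had a Spearman correlation of 0.333 across 11466 genes, which share both libraries, and the median GC content of the members was 47.6% against 48.7%. With trends of length and GC content subtracted the median of the members was −0.12 and that of all entries −0.023. Expression level and the log2 ratio had a Spearman correlation of −0.213 over all entries. The median mean FPKM was 31.6 for members and 7.63 for all entries. With the trend of expression level subtracted the medians of members and all entries were −0.10 and 0.0023, and with total-count scaling −0.11 and 0.034.

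The 6 lowest members with siRNA included 2 of those past the 2-fold rule with palbociclib, MRPL17 and MRPL51. MRPS35, a small subunit protein particular to mitochondria, had 1541 reads untreated, 1082 with siRNA and 1168 with palbociclib, or 73.4, 54.9 and 71.9 CPM. It stood at 0.749 with siRNA (0.692 to 0.81) and near the untreated level with palbociclib. MRPS9, with a bacterial homologue, stood at 0.769 (0.688 to 0.859), MRPL17 at 0.773 (0.718 to 0.832), MRPL42, which is particular to mitochondria, at 0.78 (0.733 to 0.829), MRPL3 at 0.806 (0.772 to 0.842) and MRPL51 at 0.81 (0.766 to 0.856). The single member with an interval above 1 was MRPS17 at 1.33 (1.01 to 1.75), from 98 and 122 reads, and no interval lay above 1 when all entries of a symbol were summed. The subunits stood close together, with medians of −0.17 for the large and −0.13 for the small subunit.

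Palbociclib against CDK4 siRNA. The direct comparison has no untreated reads in its ratios, but the untreated library entered the minimum of reads and the scaling factors. It is thus not independent of that library. The members stood lower in the palbociclib library. Their median log2 ratio was −0.39, against −0.079 over all entries. By the 2-fold rule 5 members were lower, or 6.85%, against 13.9% of all entries, and none was higher against 8.56%. These were MRPL40 at 0.417 (0.351 to 0.494), MRPL24 at 0.439 (0.397 to 0.486), MRPL52 at 0.449 (0.394 to 0.51), MRPL55 at 0.477 (0.398 to 0.569) and MRPL36 at 0.496 (0.433 to 0.567). By the 1.5-fold rule 26 were lower, or 35.6%, against 25.9%, and 1, MRPL10 at 1.59 (1.5 to 1.69), was higher against 19.3%. Intervals lay below 1 for 54 members, or 74.0%, against 41.6%, and above 1 for 7, or 9.59%, against 35.7%. The other members with intervals above 1 were MRPS35 at 1.31 (1.2 to 1.42), MRPL45 at 1.3 (1.22 to 1.39), MRPS2 at 1.24 (1.15 to 1.34), MRPL4 at 1.13 (1.07 to 1.19), MRPS27 at 1.12 (1.06 to 1.18) and MRPS21 at 1.1 (1.01 to 1.2). Medians were −0.43 over the large and −0.32 over the small subunit.

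Cytosolic ribosomal protein genes, set beside the members because they build the other ribosome of the cell, stood on the other side of the untreated level with palbociclib. Their median log2 ratio over 78 genes was −0.20 with siRNA and 0.42 with palbociclib, against −0.16 and −0.55 for the members. With palbociclib 65 of 78 intervals, or 83.3%, lay above 1 and 4, or 5.13%, below, against 35.8% and 42.1% of all entries. These genes are deeply covered, with a median of 14170 reads in the untreated library against 1382 for the members, so their intervals are narrower. Over the 13 protein-coding genes of mitochondrial DNA, whose mRNAs the mitochondrial ribosome translates, the median was 0.96 with palbociclib. All their intervals lay above 1, from a median of 50287 reads in the untreated library. The 13 genes made up 6.53% of the reads with palbociclib against 4.02% in the untreated library. Differences between these groups were not tested.

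**Figure D4:**
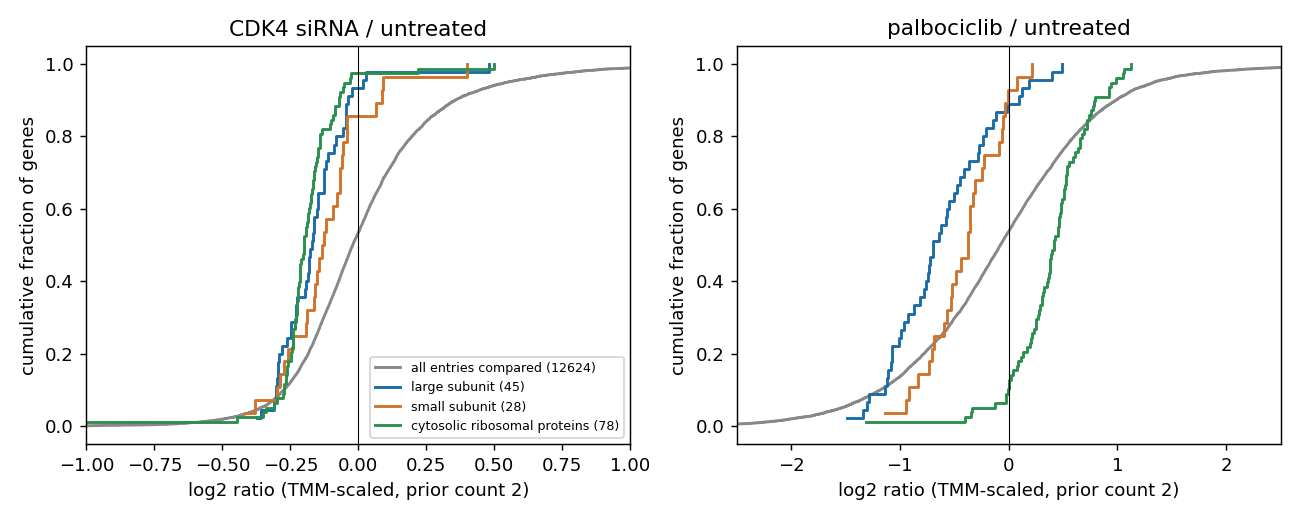
Cumulative fraction of genes (y axis) at or below each log2 ratio (x axis) for CDK4 siRNA (left) and palbociclib (right) against untreated, for all 12624 entries compared, the large and small subunit members and 78 cytosolic ribosomal protein genes. With siRNA both subunits and the cytosolic genes lie left of all entries over most of their range. With palbociclib the members lie left of all entries over most of their range and the cytosolic genes right of the members.

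Other genes of the mitochondrial translation pathway were set beside the members from lists by role, and their counts are read against the 13.6% of all entries that were lower and the 9.75% that were higher by the 2-fold rule with palbociclib. Among 7 ribosome components whose symbols do not start with MRPL or MRPS, 3, or 42.9%, were past this rule as lower and 0 as higher, a share that rests on 7 genes. Their median log2 ratio was −0.77. MRP63 stood at 0.406 (0.364 to 0.452), GADD45GIP1 at 0.451 (0.414 to 0.49) and AURKAIP1 at 0.478 (0.453 to 0.504). ICT1, a peptidyl-tRNA hydrolase built into the large subunit, stood at 0.584 (0.522 to 0.653). DAP3, a GTP-binding protein of the small subunit, went the other way, with 2150, 1915 and 2539 reads and a ratio of 1.53 (1.44 to 1.62).

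In a list of 14 translation factor and related genes 2, or 14.3%, were past the 2-fold rule as lower with palbociclib. This was near the 13.6% of all entries, and 0 were past the rule as higher. The list includes SLIRP, LRPPRC and MTFMT, which are not translation factors. The median log2 ratio over the list was −0.13. SLIRP, an RNA-binding partner of LRPPRC, stood at 0.379 (0.341 to 0.422) and TSFM, the exchange factor of the elongation factor TUFM, at 0.467 (0.395 to 0.551), while TUFM itself stood at 1.16 (1.13 to 1.18). Of 23 measured genes of ribosome assembly and rRNA modification 3, or 13.0%, were lower and 2, or 8.70%, higher, near the 13.6% and 9.75% of all entries, with a median of −0.28. RPUSD3, a pseudouridine synthase, stood at 0.334 (0.287 to 0.387), FASTKD2, an RNA-binding assembly factor, at 0.415 (0.367 to 0.469) and TFB1M, an rRNA methyltransferase, at 0.481 (0.392 to 0.588). The GTPase genes NOA1, at 2.5 (2.37 to 2.63), and GTPBP5, at 2.02 (1.87 to 2.17), were the higher ones.

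Among 10 genes of mitochondrial transcription and genome copying 2, or 20.0%, were lower by the 2-fold rule with palbociclib and 0 higher, against 13.6% and 9.75% of all entries. SSBP1, which binds single-stranded mitochondrial DNA, stood at 0.451 (0.418 to 0.486) and MTERFD1 at 0.494 (0.433 to 0.563). POLRMT, the mitochondrial RNA polymerase, stood at 1.55 (1.51 to 1.59), and TFAM, which packages mitochondrial DNA, at 0.904 (0.84 to 0.972). Of 9 measured nuclear regulators 1 was higher and 1 lower, or 11.1% each, near the shares of all entries. These were MYC at 2.22 (2.16 to 2.27) and the coactivator gene PPARGC1B at 0.484 (0.411 to 0.569). With siRNA none of the genes of these lists with at least 60 reads was past the 2-fold rule.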

How the data were processed

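RNA-seq read counts per gene were used for 3 HCT116 libraries, 1 per group. The deposited counts are whole numbers without normalisation, and the deposited FPKM values equal these counts divided by length and library size. The submitters' processing notes name HTSeq 0.6.1, DESeq and the build hg19. For the aligner, annotation and strand setting nothing is given in the sources used here, so reads of overlapping and antisense genes cannot be told apart.

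Counts were scaled by TMM (edgeR 4.0.16, R 4.3.3), with factors of 1.03 for untreated, 1.07 for siRNA and 0.901 for palbociclib. CPM values are relative to the scaled totals. Log2 ratios carry a prior count of 2, and ratios without a log carry none. Each ratio has an exact 95% Clopper-Pearson interval and each CPM an exact Poisson interval (SciPy 1.17.1). They cover counting error only. Without molecular identifiers, reads may repeat a molecule. No p-value was computed. The code was tested on simulated data. A symbol with several entries was represented by the one with the most reads. Gene length came from counts and FPKM, and GC content from GENCODE release 29 transcripts.

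Members and lists were chosen with earlier results of these data known. Named members are those past the 2-fold rule, the 6 highest and 6 lowest of each comparison with an interval on 1 side of 1, the 4 highest and 4 lowest by mean FPKM, and fixed genes. Other genes are named when past the 2-fold rule or fixed. MRPL32, members named for exon overlap alone and the further members whose intervals include 1 or lie above 1 were added after their values were seen. Mitochondrial rRNA genes were not analysed here.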

Additional observations from a re-analysis of the deposited data

How the results depend on the processing

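The counts and medians of the 73 members depended on the scaling. With total-count scaling 20 members passed the 2-fold rule as lower with palbociclib against untreated in place of 12, and the median log2 ratio was −0.75. Against siRNA 14 passed it in place of 5, and the median was −0.64. By the 1.5-fold rule 43 were lower against siRNA in place of 26, and none was higher in place of 1. Of all entries 19.2% were lower by the 2-fold rule against untreated with this scaling, and 20.8% against siRNA. With TMM these shares were 13.6% and 13.9%, so they moved in the same direction as the member counts. The deposited FPKM gave the same 20, 14, 43 and 0 and the same medians of −0.75 and −0.64. Of all entries 18.2% and 19.7% were then lower by the 2-fold rule. With upper-quartile factors 6 members passed the 2-fold rule against untreated and 3 against siRNA, 1 passed the 1.5-fold rule as higher against untreated, and the median against untreated was −0.43. Of all entries 11.2% were then lower by the 2-fold rule against untreated and 11.7% against siRNA. Shares of all entries by the 1.5-fold rule were not computed with these alternatives. With the expression trend subtracted 0 members passed the 1.5-fold rule as higher against siRNA. The median of all entries moved with the scaling. For palbociclib against untreated, members minus all entries remained at −0.47 or −0.48 with TMM, total-count, median-of-ratios and upper-quartile scaling. This difference was −0.42 with length and GC trends subtracted and −0.53 with the expression trend subtracted or with no filter on low counts. With TMM, total-count, median-of-ratios and upper-quartile scaling the difference was −0.31 for palbociclib against siRNA and −0.14 for siRNA against untreated. With length and GC trends subtracted these values were −0.29 and −0.093. They were −0.35 and −0.11 with the expression trend subtracted, and −0.37 and −0.16 with no filter on low counts.

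Of single members, MRPL4 reversed to −0.0719 and MRPL45 to −0.0113 against untreated, and MRPL4 to −0.0808 and MRPS27 to −0.094 against siRNA, with total-count scaling and with FPKM. With the expression trend subtracted MRPL4 was at −0.0201 and MRPS27 at −0.0346 against siRNA. The large minus small subunit difference for palbociclib against untreated lay between −0.32 and −0.27 under every alternative run. For palbociclib against siRNA it was smaller, at −0.11 with TMM, total-count, median-of-ratios and upper-quartile scaling. Leaving out MRPL12, MRPL38, MRPL46 and MRPS17, an alternative chosen after seeing the data, left 12 members past the 2-fold rule. Of all entries 13.7% were then lower by this rule with palbociclib against untreated. No paired analysis was possible because each group has 1 library, and no replicate could be left out.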

Other observations

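The table also holds 66 entries named as pseudogenes of mitochondrial ribosomal proteins. Of these 13 had any reads and 1 had at least 60. MRPL45P2 had 65 reads untreated, 60 with siRNA and 112 with palbociclib, and its parent gene MRPL45 had 2179, 1789 and 1918. All other pseudogene entries together had 26 reads. Reads of near-identical copies can be split between entries, and adding the pseudogene reads to the parent genes changed no count of members past the 2-fold or the 1.5-fold rule. MRPL23-AS1, named as an antisense gene of MRPL23, had 1, 9 and 11 reads.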
